A study of Bos taurus with 24 samples.

Results

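The 10 genes described here encode enzymes that make serine, turn it into glycine and pass the released one-carbon unit to folate: PHGDH, PSAT1, PSPH, SHMT1, SHMT2, MTHFD1, MTHFD2, MTHFD1L, ALDH1L2 and GLDC. They were chosen by symbol, as 10 of the 24621 genes counted, and all 10 had counts. They were measured by RNA sequencing in 24 bovine early blastocysts, each sequenced as a single embryo, so that every value below belongs to 1 embryo. The study asked how in vitro production with or without serum changes the blastocyst compared with an embryo that developed in the cow, and whether male and female embryos respond differently.

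All embryos were Holstein, were sired by the same bull and were graded as quality 1 early blastocysts. The 8 in vivo embryos (A1 to A9, without A5) were flushed from the uteri of 3 superovulated cows and comprised 5 males and 3 females. The 8 serum embryos (B1 to B8, 3 males and 5 females) came from slaughterhouse oocytes that were matured and cultured with fetal bovine serum. The 8 serum-free embryos (C1 to C10, without C5 and C9, 5 males and 3 females) were matured with EGF and cultured with serum albumin and insulin, transferrin and selenium. Both in vitro groups were grown in synthetic oviduct fluid that contained essential and non-essential amino acids, and came from 3 in vitro experiments. In vitro embryos were harvested on the same day after insemination as in vivo embryos were flushed, or a day earlier. The day of each in vitro embryo is not in the labels, so the part of age in the levels below was not tested. The labels do not say which cow, in vitro experiment or sequencing lane an embryo belongs to, so no comparison could be made within them, and embryos of 1 cow or 1 experiment may resemble each other more than the p-values assume. Sequence, chromosome position and exon structure of the genes were not analysed here.

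Serine is made from a glycolytic intermediate in a short pathway that starts with PHGDH, continues with PSAT1 and ends with PSPH. Serine hydroxymethyltransferase, SHMT1 in the cytosol and SHMT2 in the mitochondrion, splits serine into glycine and a one-carbon unit carried by folate, which mitochondrial enzymes (MTHFD2, MTHFD1L, ALDH1L2) and a cytosolic one (MTHFD1) interconvert for purine, thymidylate and methyl group synthesis. GLDC, the decarboxylase of the glycine cleavage system, yields the same kind of one-carbon unit from glycine in the mitochondrion.

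Levels are given as normalized CPM, the fragments of a gene per 1000000 exon-mapped fragments of the embryo after TMM scaling, and they can be compared between embryos but not between genes, because gene lengths were not used. Fold changes and adjusted p-values come from the quasi-likelihood test of edgeR, with p-values adjusted by the Benjamini-Hochberg method across the whole table. Only genes with at least 15 counts in all embryos of 1 or both groups entered a test. The words higher and lower mark a call, which needed both an adjusted p under 0.05 and a 2-fold difference. The value after ± is the approximate standard error (SE) for a log2 fold change and the SD for a level. The embryos had between 3253051 and 9000447 exon counts, and the TMM factors lay between 0.862 and 1.09. A blastocyst holds trophectoderm, inner cell mass and hypoblast, and in a whole embryo fewer cells of a type and less RNA per cell cannot be told apart. The summed level of the 11 trophectoderm markers found (of 13 listed) was 7531 to 14877 CPM in the in vivo embryos, 321 to 5181 in the serum embryos and 5063 to 28805 in the serum-free embryos. In vivo the sum was mostly KRT8 and KRT18 (medians 8646 and 1792 CPM), which were at 739 and 180 in serum and 6856 and 993 in serum-free embryos. TEAD4 (medians 34.0, 58.3 and 42.5 CPM) and TFAP2C (227, 223 and 207) did not follow it. Of the 9 markers tested, 7 were lower in serum embryos than in vivo, where 13.8% of all genes were called in either direction. The corresponding sums for 7 inner cell mass markers were 312 to 430, 298 to 728 and 199 to 468 CPM, those for 6 hypoblast markers were 342 to 591, 27.0 to 233 and 128 to 406 CPM, and those for cumulus cells reached at most 51.8 CPM in any embryo. The hypoblast sums were mostly PDGFRA, with medians of 471 CPM in vivo, 79.8 in serum and 197 in serum-free embryos, while GATA6 had 17.2, 20.1 and 15.2. Of the 2 hypoblast markers tested, 1 was lower than in vivo in serum and 1 in serum-free embryos, where 13.8% and 2.2% of all genes were called. The part of the hypoblast in the levels given below was not tested. One serum embryo, the female B8, stood apart in 4 of the 10 genes on the untransformed CPM scale, and results that rest on it are given with and without it.

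**Figure D1:**
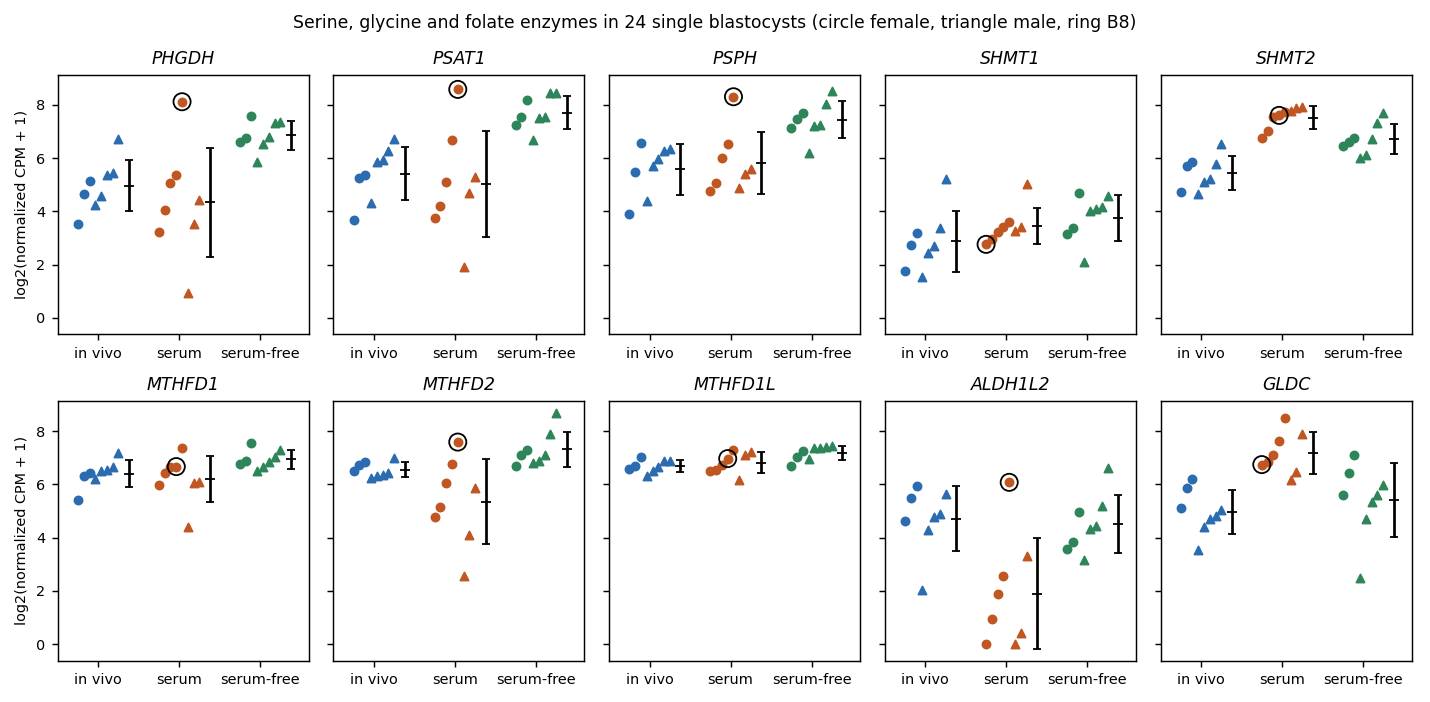
Each point is 1 embryo, with log2 of normalized CPM plus 1 on the y axis, the 3 groups of 8 embryos on the x axis, and the group mean ± SD as a bar beside the points. PHGDH and PSAT1 were at 57.3 and 102 CPM or more in all serum-free embryos, PSPH at 71.6 or more, and they spread widely in serum embryos (PHGDH 0.919 to 276 CPM), where the ringed embryo B8 lay at the top.

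PHGDH, which catalyses the first and committed step of serine synthesis, was higher in serum-free embryos than in vivo and differed enormously among serum embryos. Its level ran from 10.5 CPM (A7) over a median of 29.3 to 105 (A3) in vivo, from 0.919 (B5) over 18.1 to 276 (B8) in serum embryos, and from 57.3 (C2) over 109 to 189 (C10) in serum-free embryos. Of the serum-free embryos, 5 of 8 lay above the highest in vivo embryo, and the other 3 lay above all in vivo embryos but A3. Embryo B5 had 8 PHGDH fragments in the deepest library of the series, and B8 had 1528. The lowest and highest serum embryos thus differed 300.2-fold, against 10.02-fold in vivo and 3.303-fold among serum-free embryos. Apart from B8, the serum embryos stayed at or under 39.7 CPM and below every serum-free embryo.

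PSAT1, the aminotransferase of the second step, had the largest fold change of the 10 genes between serum-free and in vivo embryos. It ran from 11.8 (A7) over 48.3 to 104 CPM (A3) in vivo, from 2.76 (B7) over 28.8 to 381 (B8) in serum embryos and from 102 (C2) over 185 to 350.2 (C6) in serum-free embryos. In vivo and serum-free embryos overlapped only in that A3 lay above C2, and 7 of 8 serum-free embryos exceeded all in vivo embryos. In serum embryos, B8 was followed by B6 at 101 CPM, and the other 6 lay at or under 37.9.

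PSPH, the phosphatase that releases free serine, ran from 13.9 (A7) over 55.8 to 93.9 CPM (A9) in vivo, from 25.8 (B4) over 44.4 to 314 (B8) in serum embryos and from 71.6 (C7) over 164 to 367 (C4) in serum-free embryos. Again 7 of 8 serum-free embryos lay above all in vivo embryos, C7 being the exception. The serum embryos other than B8 lay within the in vivo range.

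SHMT1, the cytosolic serine hydroxymethyltransferase, had 7 to 185 counts per embryo. It ran from 1.91 over 5.55 to 36.6 CPM in vivo, from 5.78 over 9.11 to 31.3 in serum embryos and from 3.23 over 15.46 to 24.5 in serum-free embryos. The groups overlapped throughout, and single embryos made the maxima in vivo (A3, next 9.44 CPM) and in serum (B1, next 11.1 CPM).

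SHMT2, its mitochondrial counterpart, separated the serum embryos from the in vivo embryos completely. It ran from 24.1 (A4) over 43.4 to 91.1 CPM (A3) in vivo, from 107 (B2) over 201 to 241 (B5) in serum embryos and from 63.7 (C1) over 99.97 to 208 (C7) in serum-free embryos. Every serum embryo lay above every in vivo embryo, and the serum-free embryos lay between, with 5 of 8 above the highest in vivo embryo and 6 of 8 below the lowest serum embryo. Its order of groups was therefore in vivo, serum-free, serum, unlike that of PHGDH, PSAT1 and PSPH, whose median was lowest in serum embryos. Embryo B8, at 193 CPM, was not set apart in SHMT2.

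MTHFD1, the cytosolic enzyme with 3 folate-interconverting activities, ran from 41.2 over 86.5 to 144 CPM in vivo, from 20.0 (B5) over 76.2 to 162 (B2) in serum embryos and from 89.1 over 115 to 188 in serum-free embryos. All groups overlapped, and 2 of 8 serum-free embryos exceeded the in vivo range.

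MTHFD2, the mitochondrial dehydrogenase and cyclohydrolase that is abundant in embryonic and proliferating cells, was tight in vivo, from 74.4 (A4) over 87.8 to 127 CPM (A2). In serum embryos it ran from 4.90 (B7) over 45.4 to 191 (B8), and in serum-free embryos from 103 (C8) over 136 to 412 (C7). Of the serum embryos, 6 lay below the in vivo minimum and 1, B8, lay above the in vivo maximum, while 5 of 8 serum-free embryos exceeded the in vivo maximum.

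MTHFD1L, the mitochondrial formyltetrahydrofolate synthetase that releases formate, had the smallest SD of log2 levels of the 9 genes with enough counts, in each condition. It ran from 79.1 over 101 to 129.7 CPM in vivo, from 70.3 over 114 to 153 in serum embryos and from 102 over 156 to 173 in serum-free embryos. All groups overlapped, with 5 of 8 serum-free embryos above the in vivo range.

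ALDH1L2, the mitochondrial dehydrogenase that oxidises formyltetrahydrofolate, ran from 3.15 (A4) over 27.8 to 59.9 CPM (A7) in vivo and from 7.99 (C1) over 19.8 to 97.0 (C7) in serum-free embryos, with almost complete overlap. In serum embryos it had 0 to 31 fragments in every embryo but B8, where it had 368. Embryos B2 and B7 had no count, which allows up to 0.698 and 0.919 normalized CPM (3 counts, counting error only). The remaining serum embryos had 0.345 (B5), 0.909 (B3), 2.71 (B4), 4.87 (B6), 8.89 (B1) and 66.4 CPM (B8).

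GLDC, which starts glycine cleavage, ran from 10.5 (A3) over 29.4 to 71.7 CPM (A7) in vivo, from 70.8 (B1) over 125 to 361 (B3) in serum embryos and from 4.57 (C7) over 47.6 to 137 (C8) in serum-free embryos. Serum and in vivo embryos overlapped only in that A7 lay just above B1. The serum-free embryos covered a 29.95-fold range, with 6 of 8 below the lowest serum embryo.

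Between serum-free and in vivo embryos, the 3 serine synthesis genes and SHMT2 were higher in serum-free embryos. PHGDH rose by a log2 fold change of 1.71 ± 0.35 (SE, 3.28-fold, adjusted p = 0.00623). PSAT1 rose by 2.15 ± 0.34 (4.44-fold, adjusted p = 0.00137) and PSPH by 1.80 ± 0.34 (3.49-fold, adjusted p = 0.00355). SHMT2 rose by 1.27 ± 0.27 (2.41-fold, adjusted p = 0.0102). Thus 4 of 10 members were called, all higher, where 2.2% of the 7314 genes tested were called and 1.61% were called higher. The mean levels were 37.3 ± 29.6 CPM in vivo and 122 ± 44.0 in serum-free embryos for PHGDH (SD, n = 8 each), 50.5 ± 30.3 and 223 ± 92.7 for PSAT1, and 54.7 ± 28.3 and 189.8 ± 90.2 for PSPH. The median log2 fold change was 0.80 over the members and 0.00304 over all genes tested.

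MTHFD2 and MTHFD1L, both mitochondrial, passed the p threshold but not the fold limit, MTHFD2 at 0.90 ± 0.24 (1.87-fold, adjusted p = 0.0306) and MTHFD1L at 0.51 ± 0.13 (1.42-fold, adjusted p = 0.0287). With no limit on the fold change, 5.82% of all genes tested passed. MTHFD1 had a log2 fold change of 0.52 ± 0.19 (adjusted p = 0.119), GLDC of 0.69 ± 0.45 (adjusted p = 0.393), SHMT1 of 0.64 ± 0.51 (adjusted p = 0.503) and ALDH1L2 of -0.13 ± 0.48 (adjusted p = 0.916), and none of these passed. No member's groups were free of overlap, where 0.943% of all genes had groups that did not overlap. The 4 calls held in each of the 16 fits that left out 1 embryo. A single fit over all 24 embryos shares the spread of the serum embryos and averages males and females with equal weight in each condition. In it PHGDH (adjusted p = 0.133), PSAT1 (0.0550) and PSPH (0.0592) lost their calls and SHMT2 kept its own.

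**Figure D2:**
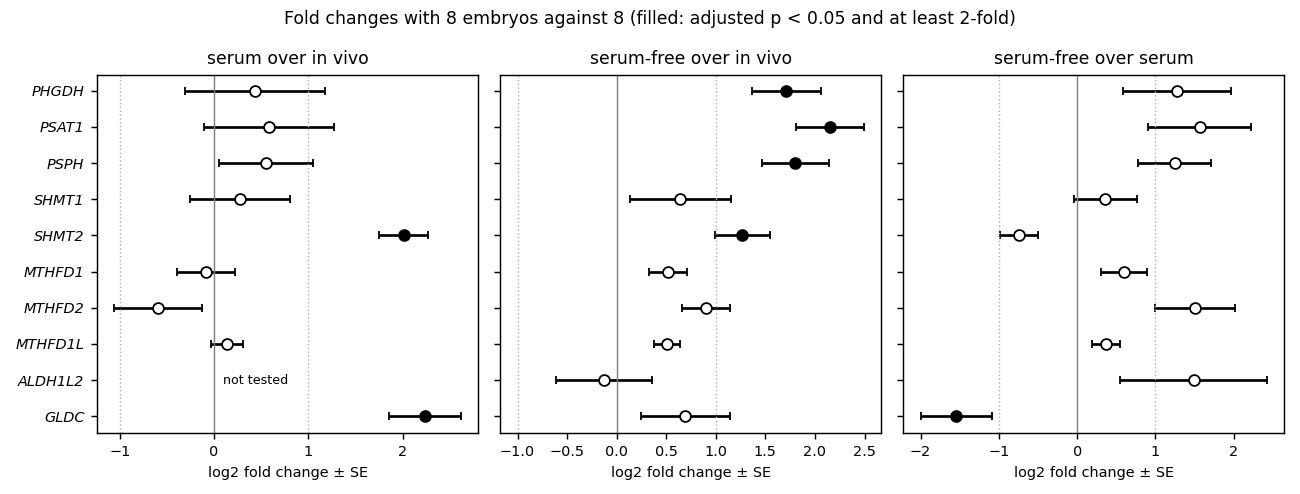
Log2 fold changes (x axis) with their SE for the 10 genes in the 3 comparisons of 8 embryos with 8, filled where the gene was called, with dotted lines at 2-fold. Serum-free over in vivo had 4 filled points to the right, serum over in vivo had SHMT2 (2.01) and GLDC (2.24), and serum-free over serum had GLDC (-1.54).

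Between serum and in vivo embryos, the mitochondrial SHMT2 and the glycine cleavage enzyme GLDC were higher in serum embryos, and the serine synthesis genes were not called. SHMT2 rose from 46.4 ± 22.0 to 189 ± 48.2 CPM (SD, n = 8 each), a log2 fold change of 2.01 ± 0.26 (4.04-fold, adjusted p = 5.61e-05). GLDC rose from 34.7 ± 20.2 to 164 ± 97.7 CPM, a log2 fold change of 2.24 ± 0.38 (4.71-fold, adjusted p = 0.000563). Of 10 members 9 were tested, ALDH1L2 failing the count limit because embryo A4 had 14 counts. The 2 of 9 called compare with 13.8% of all 7339 genes tested, 6.43% being called higher. SHMT2 was the only member whose groups did not overlap, against 6.98% of all genes. Both calls held in each of the 16 fits that left out 1 embryo, over which the log2 fold change of SHMT2 ranged from 1.96 to 2.23 and that of GLDC from 1.96 to 2.51. These comparisons of serum and of serum-free embryos share the same 8 in vivo embryos.

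The other members gave PHGDH 0.43 ± 0.74 (adjusted p = 0.687), PSAT1 0.58 ± 0.69 (0.546), PSPH 0.55 ± 0.50 (0.417), SHMT1 0.27 ± 0.53 (0.717), MTHFD1 -0.08 ± 0.31 (0.863), MTHFD2 -0.59 ± 0.46 (0.350) and MTHFD1L 0.14 ± 0.17 (0.560) as log2 fold changes of serum over in vivo. For the 3 serine synthesis genes the sign changed with embryo B8, and it also did so in 4 other settings for PHGDH and in 1 for PSAT1. The part of B8 in those settings was not tested. Without B8 the log2 fold change was -1.03 ± 0.57 for PHGDH (adjusted p = 0.174), -0.64 ± 0.54 for PSAT1 (0.387) and -0.22 ± 0.37 for PSPH (0.682), and MTHFD2 moved to -1.09 ± 0.42 (0.0544). The mean of the serum embryos went from 50.5 ± 91.9 (SD, n = 8) to 18.3 ± 13.8 CPM (n = 7) for PHGDH and from 76.2 ± 127 to 32.7 ± 32.2 for PSAT1. SHMT2 (2.00) and GLDC (2.30) stayed called without B8, where 15.7% of all genes were called and 7.19% were called higher.

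**Figure D3:**
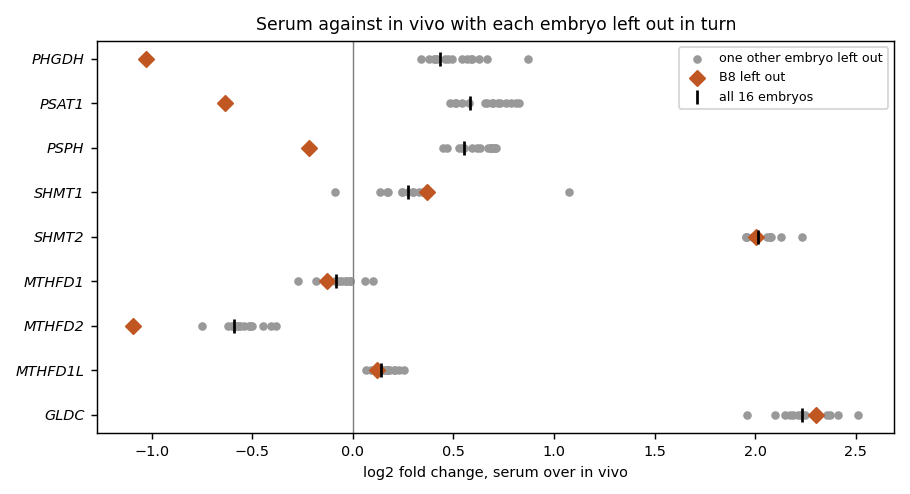
Log2 fold change of serum over in vivo (x axis) for the 9 genes tested, with all 16 embryos (bar) and with each embryo left out in turn (points, with B8 as diamonds). Leaving out B8 moved PHGDH from 0.43 to -1.03 and PSAT1 from 0.58 to -0.64, while SHMT2 and GLDC stayed at 1.96 or more whichever embryo was left out.

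The 2 media were also compared directly. With all 16 embryos, GLDC was the only member called, lower in serum-free than in serum embryos by 2.91-fold (log2 fold change -1.54 ± 0.46, adjusted p = 0.03002). That is 1 of 10 members, where 8.91% of 7181 genes were called and 3.55% were called lower. No member had groups free of overlap, against 2.38% of all genes. The call was lost without B3 (adjusted p = 0.0649) or without B5 (adjusted p = 0.0516). SHMT2 had a log2 fold change of -0.74 ± 0.24 (1.67-fold, adjusted p = 0.0426), short of the fold limit and so not called. With no limit on the fold, 16.3% of genes passed. MTHFD2 (1.502 ± 0.51, adjusted p = 0.0513), PSPH (1.24 ± 0.47, 0.0723), PSAT1 (1.56 ± 0.66, 0.108), PHGDH (1.28 ± 0.69, 0.205) and ALDH1L2 (1.49 ± 0.94, 0.274) had positive log2 fold changes that did not pass. MTHFD1 (0.60 ± 0.29, 0.157), MTHFD1L (0.37 ± 0.18, 0.156) and SHMT1 (0.36 ± 0.41, 0.560) did not pass either.

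The calls of this comparison depended both on embryo B8 and on the model. With B8 kept, 1 fit over all 24 embryos called PHGDH (2.15, adjusted p = 0.0179), PSAT1 (2.17, 0.0134), PSPH (1.53, 0.0227) and MTHFD2 (1.80, 0.00523) higher beside GLDC, with 987 genes called in all. That fit averages males and females with equal weight in each medium, so its contrast differs from that of the main fit. The exact test of edgeR called MTHFD2 (adjusted p = 0.0227) and PSPH (0.0399), and so did DESeq2 (0.0135 and 0.0279). Without B8, in the fit of these groups alone, 6 of 10 members were called, 5 of them higher in serum-free embryos, where 10.9% of 7209 genes were called and 6.52% were called higher, against 4.36% lower. The log2 fold change was then 2.74 ± 0.50 for PHGDH (6.67-fold, adjusted p = 0.00276), 2.78 ± 0.51 for PSAT1 (6.87-fold, 0.00260), 2.02 ± 0.33 for PSPH (4.05-fold, 0.00187), 2.00 ± 0.48 for MTHFD2 (4.00-fold, 0.0106) and 3.57 ± 0.82 for ALDH1L2 (11.9-fold, 0.00829). GLDC stayed lower at -1.61 ± 0.48 (adjusted p = 0.0265). The embryo left out was chosen with its values in view, so these values describe how much 1 embryo of 8 carries and are no independent test.

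B8 was the highest serum embryo for PHGDH, PSAT1, PSPH, MTHFD2 and ALDH1L2, and it lay above all 24 embryos for PHGDH and PSAT1. It was the lowest serum embryo for SHMT1 (5.78 CPM), and it lay inside the serum range for SHMT2 (193), MTHFD1 (101), MTHFD1L (124) and GLDC (106). Its summed trophectoderm markers were also the highest of the serum embryos, at 5181 CPM, ahead of B6 at 2796, while B2 (321), B7 (461) and B5 (533) had the lowest. B6 ranked second among serum embryos for PHGDH (39.7), PSAT1 (101), PSPH (90.6) and MTHFD2 (108), and B7 and B5 were lowest for MTHFD2 (4.90 and 16.0). The order was not the same throughout, since B2 was the third highest serum embryo for PHGDH (32.8) and the highest for MTHFD1 (162), and B7 and B5 ranked 4 and 5 of 8 for PSPH (47.2 and 41.6). KRT8 reached 4010 CPM and KRT18 871 among serum embryos, so the highest sum rests mainly on these keratins. Whether the share of trophectoderm plays a part in these levels was not tested. B8 had 5153971 counts, within the range of the other serum embryos, and a TMM factor of 1.07.

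**Figure D4:**
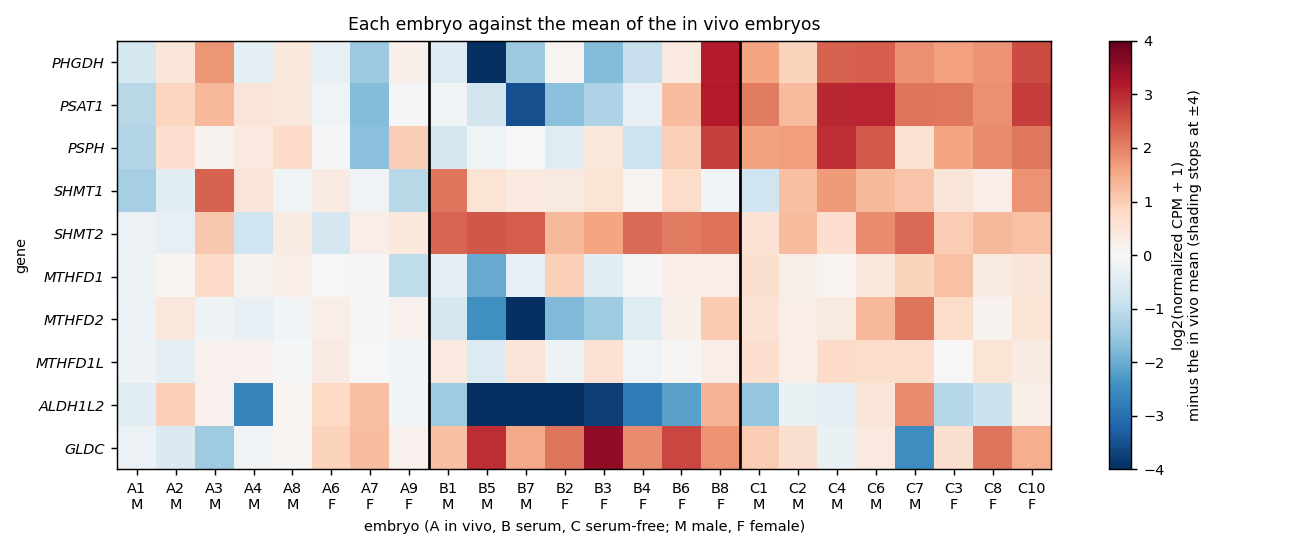
Each column is 1 embryo (A in vivo, B serum, C serum-free, M male, F female) and each row 1 gene, shaded by log2 of normalized CPM plus 1 minus the in vivo mean, with the shading stopping at 4 in either direction. The 8 serum embryos share high SHMT2 and GLDC, whereas PHGDH, PSAT1, MTHFD2 and ALDH1L2 range from below the in vivo mean (B5, B7) to above it (B8), and PSPH is set apart in B8 alone.

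The spread itself can be set beside that of other genes. On the scale of log2(CPM + 1), the SD over 8 embryos was 0.95 in vivo, 2.05 in serum and 0.55 in serum-free embryos for PHGDH, 1.01, 1.98 and 0.62 for PSAT1, and 0.27, 1.58 and 0.67 for MTHFD2. Across the 6720 genes tested in all 3 comparisons the median SD was 0.35, 0.57 and 0.43, and 83.6% of genes varied more in serum than in vivo. Among the members 6 of 9 did. The SD in serum embryos ranked at the 99.2th percentile of all genes for PHGDH, the 99.0th for PSAT1 and the 96.6th for MTHFD2, and at the 27.5th for SHMT2 and the 23.8th for MTHFD1L. Without B8, an omission chosen after seeing the data, the SD in serum embryos was 1.48 for PHGDH, 1.47 for PSAT1, 1.40 for MTHFD2 and 0.64 for PSPH, at percentiles of 94.96 for PSAT1, 94.0 for MTHFD2 and 56.2 for PSPH, with PHGDH just above PSAT1. No test of these SDs was made.

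PHGDH and PSAT1 varied together from embryo to embryo. Over the 8 in vivo embryos the correlation of their log2(CPM + 1) had a Pearson's r of 0.89 (exact permutation p = 0.00236, adjusted p = 0.0405 over 27 relations, Spearman's rho 0.86, exact permutation p = 0.0107), and 0.74 without A3 and A7. Over the 8 serum-free embryos r was 0.93 (exact permutation p = 0.00300, adjusted p = 0.0405, rho 0.86, exact permutation p = 0.0107), and 0.92 without C2 and C10. In serum embryos r was 0.66 (exact permutation p = 0.0711, adjusted p = 0.274, rho 0.62, exact permutation p = 0.115), and 0.59 without B5 and B8. Both of these rho values of 0.86 had an adjusted p of 0.0964. In serum embryos rho with PHGDH was also 0.86 for MTHFD1 (adjusted p = 0.0964) and 0.74 for MTHFD2 (adjusted p = 0.309). Their r was 0.77 and 0.71 (adjusted p = 0.230 for both), and the remaining members had a lower rho than PSAT1 there. The 27 relations were PHGDH with each of the other 9 members in each condition, tested against both directions. Only PSAT1 in vivo and in serum-free embryos passed after adjustment, by r. For GLDC the in vivo r was -0.82 (exact permutation p = 0.0176, adjusted p = 0.158), and it was -0.21 without A3 and A7.

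Over all 24 embryos, the genes whose log2 levels had a high Pearson's r with PHGDH, among 6719 genes, included ASNS (asparagine synthetase, 0.88), PYCR1 (proline synthesis, 0.88), PSAT1 (0.84) and GLRX2 (a mitochondrial glutaredoxin, 0.79). PSPH ranked 9th with 0.76, MTHFD1 14th with 0.73 and MTHFD2 15th with 0.73. SHMT2 (-0.04) and GLDC (-0.42) were far from it. By Spearman's rho the 5 leading genes were PSAT1 (0.94), PYCR1 (0.90), GSTP1 (0.86), PCK2 (0.85) and ASNS (0.84). When each embryo was taken relative to the mean of its condition, ASNS had 0.86, PYCR1 0.80 and PSAT1 0.72. Without B8, Pearson's r with PHGDH over 23 embryos was 0.87 for ASNS, 0.87 for PYCR1, 0.82 for PSAT1, 0.72 for PSPH, 0.72 for MTHFD2, -0.12 for SHMT2 and -0.50 for GLDC. These values describe likeness over embryos that share conditions, and embryo B8 was the highest serum embryo for PSAT1, ASNS, PYCR1, GSTP1 and PCK2.

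**Figure D5:**
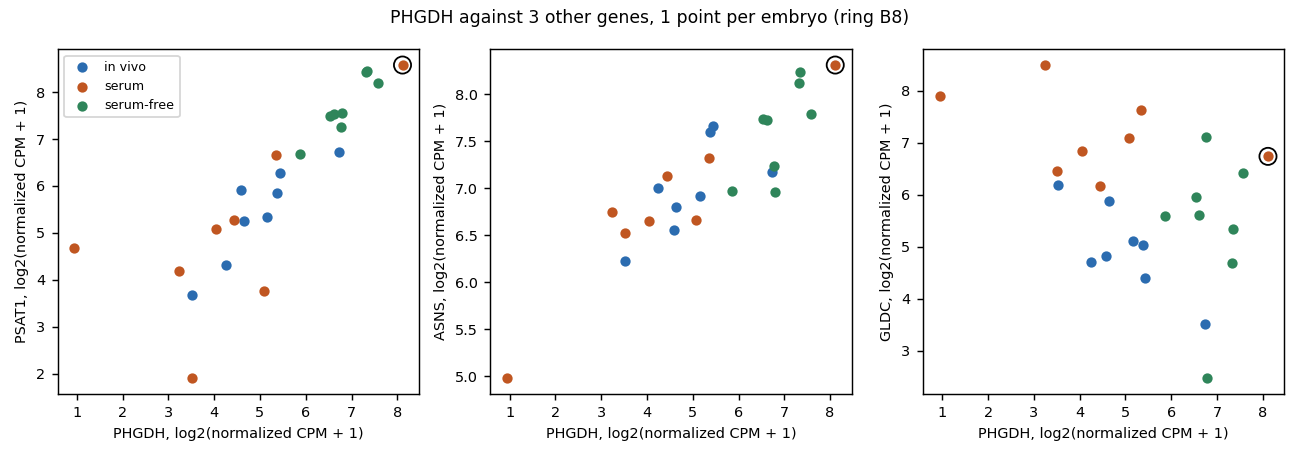
PSAT1, ASNS and GLDC (y axes) against PHGDH (x axis), all as log2 of normalized CPM plus 1, with 1 point per embryo coloured by group and B8 ringed. PSAT1 (r = 0.84 over 24 embryos) and ASNS (r = 0.88) lie along a line that runs through all 3 groups, and GLDC (r = -0.42) does not.

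The comparisons within 1 sex rest on 3 to 5 embryos a group. In male embryos, serum against in vivo had 3 of 9 members called, where 13.3% of 7762 genes were called, 5.31% higher and 8.03% lower. SHMT2 was higher in serum males by 2.25 ± 0.35 (adjusted p = 0.00238, 229.8 ± 13.1 against 47.6 ± 26.6 CPM, SD, 3 and 5 embryos) and GLDC by 2.52 ± 0.42 (adjusted p = 0.00289). MTHFD2 fell by 1.81 ± 0.58 on the log2 scale (adjusted p = 0.0483, 25.8 ± 27.2 against 89.2 ± 21.7 CPM), with all 3 serum males below all 5 in vivo males. Groups did not overlap in 4 of 9 members (SHMT2, GLDC, MTHFD1 and MTHFD2), against 26.2% of all genes. SHMT2 and GLDC were called in each of the 8 fits without 1 embryo, and MTHFD2 only in the fit without B1. Without B1, 6 members were called, and 1755 genes in all against 1035 with it. PHGDH was at -2.15 ± 0.83 (adjusted p = 0.0893) and PSAT1 at -1.54 ± 0.67 (0.128) in this comparison, which does not hold B8.

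In female embryos, serum against in vivo had 0 of 10 members called by edgeR's quasi-likelihood test, where 0.418% of 8138 genes were called. Of the members, 2 of 10 had an unadjusted p under 0.05, as had 21.1% of all genes. The exact test of edgeR and DESeq2 each called 2 members, among 475 and 585 genes in all, against 34 by the quasi-likelihood test. SHMT2 had a log2 fold change of 1.91 ± 0.35 (adjusted p = 0.0529) and GLDC of 1.77 ± 0.47 (0.106), and in both all 5 serum females lay above all 3 in vivo females. Such separation was seen in 2 of 10 members and in 22.7% of all genes. PHGDH was at 1.71 ± 1.06 (0.375), with B8 among the 5 females.

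Serum-free against in vivo had 2 of 10 members called in each sex, all higher, where 0.966% of 7662 genes were called in males (0.653% higher) and 0.304% of 8211 in females (0.207% higher). In males these were PSAT1 (1.90 ± 0.39, adjusted p = 0.0355) and PSPH (1.82 ± 0.40, adjusted p = 0.0397). In females these were PHGDH (2.51 ± 0.42, adjusted p = 0.0416) and PSAT1 (2.82 ± 0.42, adjusted p = 0.0323). The calls were fragile: over the fits that left out 1 embryo, PSAT1 was called in 4 of 10 and PSPH in 2 of 10 in males, and PHGDH in 0 of 6 and PSAT1 in 1 of 6 in females. The log2 fold changes stayed between 1.47 and 3.09 in all these fits. In females, PHGDH, PSAT1, PSPH, SHMT2 and MTHFD1 had groups of 3 and 3 that did not overlap, which is 5 of 10 members against 21.1% of all genes. In males, MTHFD1L did not overlap (0.69 ± 0.16, adjusted p = 0.0417, 1.61-fold), 1 of 10 members against 5.42% of all genes.

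Whether the change with culture differed between the sexes was tested as an interaction. No member passed by edgeR's quasi-likelihood test for serum (smallest adjusted p = 0.777, MTHFD1) or for serum-free embryos (0.757, MTHFD1), and 0% of the 8446 and 8425 genes tested passed. At an unadjusted p under 0.05 there were 3 members for serum (MTHFD1, PHGDH and PSAT1) and 0 for serum-free embryos, against 5.16% and 6.59% of all genes. DESeq2 called 0 members in either, among 14 and 5 genes in all. The serum females include B8, at 276 CPM for PHGDH and 381 for PSAT1, where the others reached at most 39.7 and 101. For serum, each of the 16 fits without 1 embryo called 0 members, and 0 to 3 of all genes. Unadjusted values without B8 are not given here. Between male and female embryos of the same condition, edgeR's quasi-likelihood test called no member. In vivo, 9 members were tested and 0.653% of all genes called, with 2 members at an unadjusted p under 0.05, against 13.5% of all genes. GLDC had the smallest adjusted p (0.102), at -1.26 ± 0.34 on the log2 scale, with all 5 males (10.5 to 31.7 CPM) below all 3 females (33.7 to 71.7 CPM). It was 1 of 9 members without overlap, against 9.96% of all genes. The exact test and DESeq2 each called 1 member there, among 119 and 116 genes in all, against 52 by the quasi-likelihood test. In serum, where 0.173% of genes were called, 2 of 9 members had an unadjusted p under 0.05, and in serum-free embryos, where 0.139% were called, 1 of 10 had one, against 6.24% and 8.01% of all genes. Groups did not overlap in 1 of 9 members in serum (SHMT2, all 3 males above all 5 females), against 6.07% of all genes, and in 0 of 10 in serum-free embryos, against 6.68%. The smallest adjusted p was 0.780 in serum and 0.596 in serum-free embryos, and the exact test and DESeq2 called no member in either.

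Other genes of the pathway were taken from lists, whose members were counted in the same fits. Of 15 genes of the folate cycle and its carriers, 14 were found and 7 tested in serum and in serum-free embryos against in vivo. None was called by edgeR's quasi-likelihood test, where 13.8% and 2.2% of all genes were. The median log2 fold change of these genes was -0.57 in serum and -0.25 in serum-free embryos, against 0.0147 and 0.00304 over all genes. TYMS, which makes thymidylate, was at -0.35 ± 0.27 in serum (adjusted p = 0.330) and -0.37 ± 0.20 in serum-free embryos (0.276). Between the media, where 8.91% of all genes were called, 1 of 8 was called, MTHFS, which returns formyltetrahydrofolate to the cycle. It was higher in serum-free than in serum embryos (1.47 ± 0.50, adjusted p = 0.0499), and in 2 of 16 fits without 1 embryo it remained called.

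Of 13 genes for the rest of the glycine cleavage system and for other serine and glycine enzymes, 8 were tested in serum against in vivo. Of these, 1 was called in each direction, where 13.8% of all genes were called in either direction. SDS, serine dehydratase, which degrades serine to pyruvate, ran from 0 to 6.48 CPM in vivo, from 8.89 (B1) over a median of 64.1 to 2328 (B2) in serum embryos and from 0 to 35.8 in serum-free embryos. It was higher in serum than in vivo (log2 fold change 7.10 ± 1.18, adjusted p = 0.000428) and lower in serum-free than in serum embryos (-5.52 ± 1.24, adjusted p = 0.00927). Without B2 the first value was 5.38 and the second -3.80, and SDS was called in each of the 16 fits without 1 embryo in both comparisons. GCAT, which makes glycine from threonine, fell by 1.72 ± 0.45 in serum against in vivo (adjusted p = 0.00856). The partners of GLDC in glycine cleavage were not called. AMT was at 0.45 ± 0.17 in serum against in vivo (adjusted p = 0.0484, under the fold limit), GCSH at -0.37 ± 0.40 (0.512) and DLD at -0.03 ± 0.16 (0.910). In serum-free embryos against in vivo 0 of 7 were called, where 2.2% of all genes were. The median log2 fold change of the list was -0.20 in serum and -0.09 in serum-free embryos, against 0.0147 and 0.00304 over all genes.

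PHGDH, PSAT1, PSPH, SHMT2 and MTHFD2 are known targets of ATF4, the transcription factor of the amino acid response. Of 20 other genes of that response, 18 were found and 12 tested in serum-free embryos against in vivo, with 4 called, all higher. Over all genes tested, 2.2% were called and 1.61% were called higher. They were PCK2, the mitochondrial carboxykinase (2.49 ± 0.29, adjusted p = 0.000191), PYCR1 (1.52 ± 0.44, 0.0464), the stress protein gene NUPR1 (1.52 ± 0.41, 0.0326) and DDIT4, an inhibitor of mTOR signalling (1.39 ± 0.27, 0.00400). The median log2 fold change over the 12 was 0.69, against 0.00304 over all genes. PCK2 and DDIT4 were called in each of the 16 fits without 1 embryo, NUPR1 in 7 and PYCR1 in 5. ATF4 itself was at 0.62 ± 0.18 (adjusted p = 0.0479, under the fold limit) and ASNS at 0.61 ± 0.21 (0.0938). In serum against in vivo 1 of 11 was called, DDIT4 (1.63 ± 0.26, adjusted p = 0.000326), where 13.8% of all genes were called. The median was 0.24 there, against 0.0147 over all genes. Between the media 0 of 12 were called, where 8.91% of all genes were. Embryo B8 was the highest serum embryo for ASNS (316 CPM), PYCR1 (73.7), PCK2 (117), NUPR1 (108) and DDIT4 (279). Whether ATF4 plays a part in the levels of the members was not tested.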

How the data were processed

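RNA of 24 single bovine early blastocysts was amplified, and libraries were sequenced as paired reads. According to the study's methods, reads were trimmed and mapped to the bovine genome UMD 3.1 with CLC Genomics Workbench. The authors deposited these data as raw counts, the number of uniquely mapped exon fragments that each gene had in each embryo. Amplified fragments carry no molecular identifiers, so limits on counts cover counting error only.

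All 24 value columns were matched to an embryo by name, and condition and sex were taken from the labels. Counts were TMM-normalized and tested with the quasi-likelihood test of edgeR 4.0.16 in R 4.3.3, separately for each comparison. Genes short of 15 counts in some embryo of both groups were left out. Benjamini-Hochberg adjustment covered all genes tested, and calls required an adjusted p under 0.05 and a 2-fold difference. Levels are TMM-normalized CPM over the 24 embryos, and correlations used log2(CPM + 1) with exact permutation of the 8 embryos of a condition. Standard errors were obtained by dividing each estimate by the square root of F. Each embryo was 1 replicate, total counts were 3253051 to 9000447, and the tests were checked on simulated data.

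The members and gene lists were chosen with earlier results of these data known. The genes named are the 10 members, list genes that passed in any comparison of all embryos, and those of the 5 genes with the highest Pearson correlation with PHGDH that are reported here, since some results are not. Genes leading under the alternative measures of likeness, and TYMS, AMT, GCSH, DLD, ATF4 and ASNS, were named after their values were seen. Alternatives were edgeR's exact test, DESeq2 1.42.0, DESeq2 size factors, other count limits (at least 1 count in any embryo, or at least 15 in every embryo of both groups), 1 fit over all embryos by condition and sex (the sexes weighing equally where both are compared), thinned counts, no fold limit, sex as a covariate, the label number as a block, and each embryo left out. No batch was modelled.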

Additional observations from a re-analysis of the deposited data

Results flagged for a closer look

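For each of the 10 genes in each of the 3 conditions, the highest and the lowest of the 8 embryos were compared with the others by Dixon's test at 95%, 30 groups in all, and 9 had an embryo set apart from the rest. Chance alone picks about 1 in 20 groups only where values are normally distributed. The test used untransformed CPM and was not run on the log2 scale, so the 9 cannot be set against that rate. All 9 were high values, and they fell on 4 embryos. The female serum embryo B8 carried 4 of them, PHGDH at 275.8 CPM (next embryo 39.7), PSAT1 at 380.9 CPM (next 100.5), PSPH at 314.3 CPM (next 90.6) and ALDH1L2 at 66.4 CPM (next 8.89). The male serum-free embryo C7 carried 2, MTHFD2 at 412 CPM (next 234) and ALDH1L2 at 97.0 CPM (next 35.4), and it had the highest summed trophectoderm markers of all 24 embryos, 28805 CPM, and the lowest TMM factor, 0.862. The male in vivo embryo A3 carried 2, PHGDH at 105 CPM (next 42.3) and SHMT1 at 36.6 CPM (next 9.44). The male serum embryo B1 carried 1, SHMT1 at 31.3 CPM (next 11.1). The part of the share of trophectoderm in these values was not tested. Without A3 the log2 fold change of PHGDH in serum-free against in vivo embryos was 2.15 in place of 1.71. SHMT1 was called there at 1.43 (adjusted p = 0.0498), with 141 genes called in all against 161 with A3. This was the only 1 of the 16 fits without 1 embryo to call SHMT1. A3 was picked out with its values in view and was the highest in vivo embryo for both genes, so these values are no independent test.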

How the results depend on the processing

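The calls of SHMT2 and GLDC in serum against in vivo held in all 16 fits without 1 embryo and all 10 other settings, with 2 members called in each. In serum-free against in vivo, 4 members were called, 4 to 5 without 1 embryo, and 1 in 1 fit over all 24 embryos. Between the media 1 was called, but 3 by edgeR's exact test, 3 by DESeq2, 2 with 15 counts required in both groups, 5 in the fit over 24 embryos, 2 with no fold limit, and 0 to 6 without 1 embryo. In males against in vivo, serum gave 3 calls, 5 with the limit of 1 count and 2 to 6 without 1 embryo, and serum-free gave 2, 5 by the exact test, 5 by DESeq2, 0 in the fit over 24 embryos and 0 to 2 without 1 embryo. In females, serum gave 0, 2 by the exact test, 2 by DESeq2, 1 with either other count limit, 1 in the fit over 24 embryos and 0 to 2 without 1 embryo (2 without B2), and serum-free gave 2, 4 by the exact test, 5 with the limit of 1 count, 0 in the fit over 24 embryos and 0 to 1 without 1 embryo. Over all genes, 1011, 161 and 640 were called in the 3 comparisons of all embryos, 1098, 207 and 768 by the exact test, 1094, 199 and 770 by DESeq2, 544, 94 and 366 with 15 counts required in both groups, 2074, 426 and 1171 with no fold limit, and 68 in serum-free against in vivo and 987 between the media in the fit over 24 embryos (393 between the media without C7). Within 1 sex the exact test, DESeq2, the limit of 1 count and the fit over 24 embryos called 1272, 1279, 1149 and 919 genes in serum males (1035 in the report), 200, 201, 86 and 22 in serum-free males (74), 475, 585, 58 and 461 in serum females (34) and 194, 181, 232 and 0 in serum-free females (25). Without 1 embryo, 890 to 1155, 115 to 174 and 393 to 784 genes were called in the 3 comparisons of all embryos. In serum and serum-free males these were 658 to 1755 and 9 to 122. In serum and serum-free females they were 2 to 446 (446 without B2) and 1 to 18. Males against females in vivo gave 0 members called, and 1 by the exact test, by DESeq2 and with the limit of 1 count.

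Log2 fold changes that turned their sign were all uncalled. In serum against in vivo PHGDH was at -0.94 by DESeq2, -0.23 in the fit over 24 embryos, -0.19 with sex as a covariate, -0.059 with the replicate block and -1.03 to 0.87 without 1 embryo (negative without B8), PSAT1 at -0.42 with the block and -0.64 to 0.83 (negative without B8), PSPH at -0.22 to 0.71 (negative without B8), SHMT1 at -0.087 to 1.07 (negative without B1), and MTHFD1 at -0.27 to 0.10 (positive without A3 or B5). In serum-free against in vivo ALDH1L2 was at -0.69 to 0.091 (positive without A7, C1 or C3). Apart from fewer or other embryos in the fit, the cause was not tested.

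Of 21 pairs of embryos that share a label number across conditions, 0 deviated together with a correlation over 0.1 (-0.14 to 0.10). Pairs with different numbers were not compared, so these values cannot show whether the numbers mark a shared experiment or lane. With the number as a replicate block, 2 members were called in serum and 4 in serum-free embryos against in vivo, 0 between the media and 0 in serum-free males, and the calls over all genes went to 82 in serum-free against in vivo and 29 between the media. The 7 to 185 counts of SHMT1 per embryo, and the few of ALDH1L2 in serum embryos, limit the precision of their values, and the smallest detectable difference was not computed.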

Other observations

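Genes that feed the one-carbon pathway or draw on it were counted from lists in the same fits. Of the 6 enzymes of de novo purine synthesis, which use formyl groups carried by folate, 2 were higher in serum embryos than in vivo, where 6.43% of all genes were, and lower in serum-free than in serum embryos, where 3.55% were. PPAT, the first enzyme of the route, rose by a log2 fold change of 1.57 ± 0.30 in serum (adjusted p = 0.00119) and fell by 1.42 ± 0.31 between the media (adjusted p = 0.00917). GART, which takes up a formyl group, rose by 1.31 ± 0.28 (adjusted p = 0.00237) and fell by 1.23 ± 0.28 (adjusted p = 0.00951). Serum embryos ran from 177 to 902 CPM for PPAT and from 259.6 to 1072 for GART, with B2 highest in both, while in vivo embryos stayed between 118 and 155 and between 159 and 242. GART was at -0.94 between the media without B2, under the fold limit. In serum-free embryos against in vivo 0 of 6 were called by edgeR's quasi-likelihood test, where 2.2% of all genes were.

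Of 11 serine and glycine transporters, 10 were found. SLC1A5, a carrier of neutral amino acids, was higher than in vivo in serum (1.61 ± 0.20, adjusted p = 5.30e-05) and in serum-free embryos (1.46 ± 0.35, adjusted p = 0.0198), with means of 21.6 ± 5.84, 66.1 ± 13.9 and 59.1 ± 31.9 CPM (SD, n = 8 each) in vivo, in serum and in serum-free embryos. SLC38A2, which imports small neutral amino acids with sodium, fell by 1.58 ± 0.26 in serum (adjusted p = 0.000394), from 637 ± 114 to 213 ± 118 CPM. These were the 2 called of 4 tested in serum and 1 of 5 in serum-free embryos, and 0 of 4 were called between the media. Over all genes tested, 13.8%, 2.2% and 8.91% were called in these comparisons.

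Of 12 genes of the methionine cycle and transsulfuration, 11 were found. CTH, which makes cysteine from cystathionine, was higher in serum-free embryos than in vivo (1.32 ± 0.38, adjusted p = 0.0418) and than in serum (1.79 ± 0.58, adjusted p = 0.0429), and these calls held in 9 and in 3 of 16 fits without 1 embryo. AHCYL2, a relative of the enzyme that clears adenosylhomocysteine, fell by 1.32 ± 0.22 in serum against in vivo (adjusted p = 0.000448) and was higher in serum-free than in serum embryos (1.04 ± 0.29, adjusted p = 0.0224), the latter in 12 of 16 such fits. These were 1 of 7 genes tested in serum, 1 of 8 in serum-free embryos and 2 of 7 between the media, where 13.8%, 2.2% and 8.91% of all genes were called. The embryos of each medium, and those in vivo, are shared between these comparisons.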
